A study of Rattus norvegicus with 9 samples.

Results

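RNA of CD4+ T cells was compared between rats with treated arthritis and normal rats. The cells came from the peripheral blood of SD (Sprague-Dawley) rats aged 8 to 10 weeks. The combination group held 3 libraries from CIA rats that had received a compound combination for 4 weeks, and the normal group held 3 libraries from normal rats. The abbreviation CIA was taken to mean collagen-induced arthritis because the study is about rheumatoid arthritis. The compounds are described as coming from Chinese herbal medicine and are not named. These were 6 of 9 libraries in all, the other 3 being labelled model, which was read as CIA rats without the combination. The labels give neither the method by which CD4+ cells were selected nor whether each library came from its own animal, so p-values here reflect only how far these libraries spread, which may be technical. The 2 groups differed in both arthritis and treatment, and the effects of these cannot be told apart in this comparison. The file headers of the combination libraries carry another set of sample names than the labels. Whether these libraries were also prepared apart is not given, and separate preparation cannot be told apart from treatment. Levels are given in TPM, a transcript's share of all transcripts in a library after correction for length. The genes and transcripts described are those whose TPM averaged 1 or more across these 6 libraries, 14309 of 36858 genes and 35980 of 80092 transcripts. Model values stand beside the others as context, and both arthritis groups share the same 3 normal libraries as controls.

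CD4+ T cells are the helper and regulatory cells of adaptive immunity. They read peptides on class II MHC molecules through the T cell receptor, whose signal passes through the CD3 chains, the kinases Lck and Zap70 and the adaptor Lat. Collagen-induced arthritis is a model of rheumatoid arthritis that depends on such cells, and NF-kB, a family of dimeric transcription factors, carries many of the inflammatory signals in them and in myeloid cells. In the canonical branch the inhibitor encoded by Nfkbia releases dimers of Rela and Nfkb1, while in the non-canonical branch processing of the Nfkb2 product releases dimers with Relb.

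The aligned depth was 8.35 to 9.07 gigabases in the normal, 7.52 to 8.12 gigabases in the combination and 8.04 to 10.1 gigabases in the model libraries. Of the variance of the 6 libraries, 41.5% lay on a first principal component that held the normal libraries at -40.5 to -27.9 and those of the combination group at 23.1 to 43.5. On the second (18.4%) combination replicate 3 lay at -45.6 and combination replicate 1 at 29.9. Ribosomal protein genes took 43.3% of TPM in combination replicate 3 and 34.0% to 37.7% in the other 5 libraries. Normal replicate 3 held more monocyte and erythroid RNA than the other normal libraries, with 374 TPM summed over monocyte and macrophage markers against 136 and 175, and 1145 TPM over erythroid markers against 80.8 and 360.

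Of the 14309 genes, 691 (4.83%) differed at an adjusted p under 0.05 in limma, with 394 higher (2.75%) and 297 lower (2.08%) in the combination group. Among the higher genes 264 differed at least 2-fold, and among the lower ones 171. The 3 libraries of each group did not overlap for any of the 691 genes; this also held for 35.9% of all genes tested. The median difference over all genes tested was 0.04 on the log2(TPM + 1) scale, which understates the change of genes with few TPM. The number of calls depended on single libraries. Omitting normal replicate 1, 2 or 3 left 35, 31 or 146 genes, and omitting combination replicate 1, 2 or 3 left 22, 91 or 761. Of the 691 genes, 14 passed whichever 1 of the 6 normal and combination libraries was omitted, 206 passed in none of these 6 fits, and 0 changed sign.

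**Figure D1:**
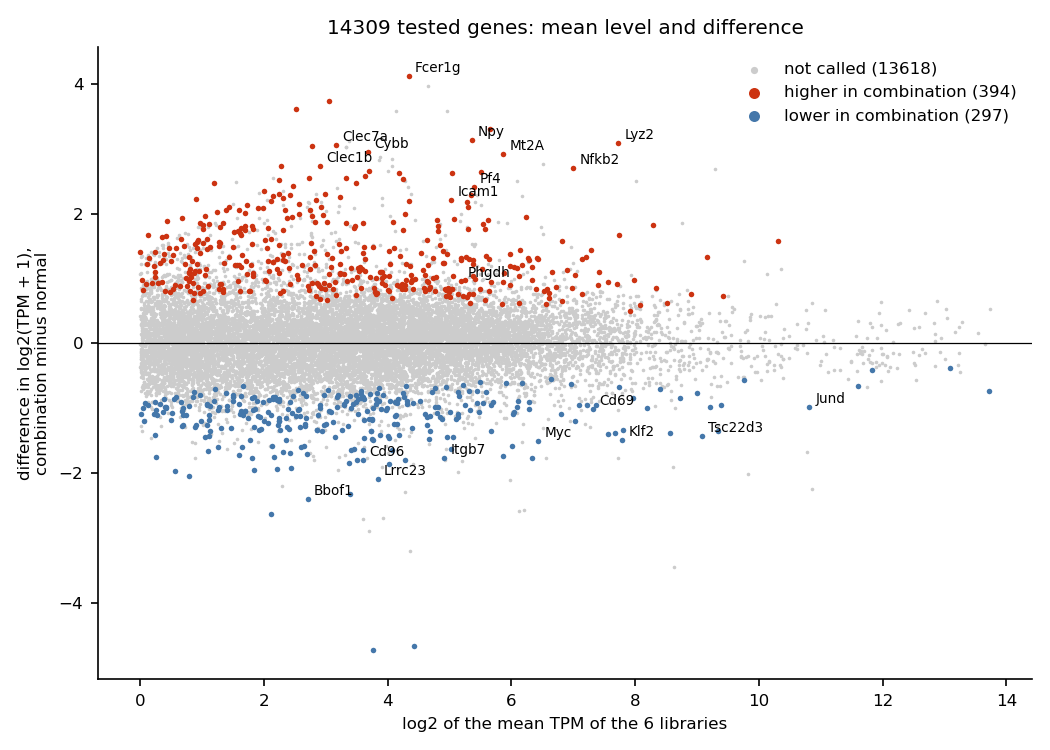
Each point is 1 of the 14309 tested genes, placed by the log2 of its mean TPM over the 6 libraries (x axis) and by the difference in log2(TPM + 1) between combination and normal (y axis). Red points are the 394 genes higher and blue points the 297 genes lower in the combination group; Fcer1g is the highest labelled point and Bbof1 the lowest; the 2 blue points below -4 carry no gene symbol, so the rule did not name them.

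Both groups expressed T cell genes at high levels. Cd3e, a CD3 chain, stood at 427, 434 and 432 TPM in normal and at 416, 345 and 323 TPM in combination replicates 1, 2 and 3, and Cd3d, another CD3 chain, averaged 441 and 450 TPM. In normal and combination libraries Cd8a, which defines cytotoxic T cells, had means of 6.81 and 5.78 TPM, and the B cell receptor gene Cd79a had means of 6.02 and 3.82 TPM. Cd4 itself was at 202, 230 and 235 TPM in normal and at 142, 121 and 98.1 TPM in combination libraries. These groups did not overlap, but the difference of -0.89 ± 0.29 (SE, n = 3 per group) did not pass (limma, adjusted p = 0.0967). With only the 2 groups fitted, where 1480 genes were called, the Cd4 difference passed (limma, adjusted p = 0.0233). In the model libraries Cd4 was at 76.5, 186 and 99.1 TPM.

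Myeloid genes led the rises, although the cells were labelled as CD4+ T cells. Fcer1g, the signalling chain of several Fc receptors (rn6 chromosome 13, 89601896 to 89606326), was at 4.19, 0.241 and 0.525 TPM in normal and at 54.6, 39.8 and 22.2 TPM in combination replicates 1, 2 and 3. All combination libraries lay above all normal ones, and the rise of 4.13 ± 0.50 on the log2 scale was the largest by the rule for named genes (limma, adjusted p = 0.0104). Without combination replicate 1 it was 3.84 with an adjusted p of 0.0579, and in the other 5 fits with 1 library left out it passed. The model libraries held 0.428, 0.754 and 0.608 TPM. The assembled locus of Fcer1g also holds a second gene name. The level of Fcer1g rests on 1 reference transcript that carries its name, and how reads were divided within the locus was not tested.

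Lyz2, lysozyme of macrophages (chromosome 7, 60335969 to 60341264), stood at 29.7, 20.5 and 109 TPM in normal and at 453, 421 and 236 TPM in combination libraries. Its rise was 3.10 ± 0.59 (limma, adjusted p = 0.031), and in the model libraries it stood at 140, 68.2 and 47.0 TPM. Normal replicate 3 was the highest normal and combination replicate 3 the lowest combination library for Lyz2, and the same order held for most myeloid genes named here. Csf1r, the receptor of the macrophage growth factor M-CSF (chromosome 18, 56414488 to 56459772), was at 2.30, 0.537 and 8.18 TPM in normal and at 26.5, 25.8 and 14.8 TPM in combination libraries (2.65 ± 0.54, limma, adjusted p = 0.0343). Cybb, the catalytic subunit of the phagocyte NADPH oxidase, rose from 2.56 ± 2.69 to 23.0 ± 7.29 TPM (mean ± SD, n = 3), by 2.95 on the log2 scale. Lyz2 and Csf1r passed only in the fits without normal replicate 3 or without combination replicate 3 among the 6 that left out 1 library, with adjusted p of 0.0888 and 0.0984 without combination replicate 1.

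Pattern recognition receptors of myeloid cells were among the largest rises. Clec7a, the receptor of fungal beta-glucan, was at 0.936, 0.315 and 2.30 TPM in normal and at 20.7, 19.2 and 10.1 TPM in combination libraries (3.06, limma, adjusted p = 0.0246). Clec4d, a C-type lectin receptor that signals through Fcer1g, averaged 0.613 ± 0.308 TPM in normal and 13.04 ± 5.72 TPM in combination libraries (log2 difference 3.04). Pik3ap1, an adaptor of phosphoinositide 3-kinase signalling in B and myeloid cells, was at 0.199, 0.0966 and 1.26 TPM against 12.8, 10.1 and 4.67 TPM (2.73). For these 3 genes the groups did not overlap. Cd14, the co-receptor of lipopolysaccharide, rose by 2.42 on the log2 scale, from 0.830 ± 0.606 to 10.3 ± 6.85 TPM, with combination replicate 3 at 2.96 TPM.

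Of 28 monocyte and macrophage markers found in the files, 19 reached the filter. Of these 7 were called higher (2.75% of all genes tested) and 0 lower (2.08%): Fcer1g, Lyz2, Cybb, Csf1r, Cd14, Adgre1 and Fcgr1a. Since a gene with few TPM in normal libraries can reach the filter only through the combination libraries, this count is a description. Over all 28 found markers 25 had a higher mean in the combination group. The summed markers were at 175, 136 and 374 TPM in normal, at 1035, 927 and 520 TPM in combination and at 334, 249 and 182 TPM in model replicates 1, 2 and 3. Tyrobp, another signalling adaptor of myeloid receptors, averaged 24.8 ± 23.1 and 112 ± 38.2 TPM and did not pass (limma, adjusted p = 0.0519). Not all markers were high. Ctss and Apoe averaged 47.7 and 18.2 TPM in normal and 49.5 and 15.6 TPM in combination libraries, and the macrophage markers Cd163, Ms4a7 and C1qb were at 0.3 TPM or less in each of the 9 libraries. In bulk RNA more cells of a type and more RNA per cell cannot be told apart, and the part of other cells in the differences described here was not tested.

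**Figure D2:**
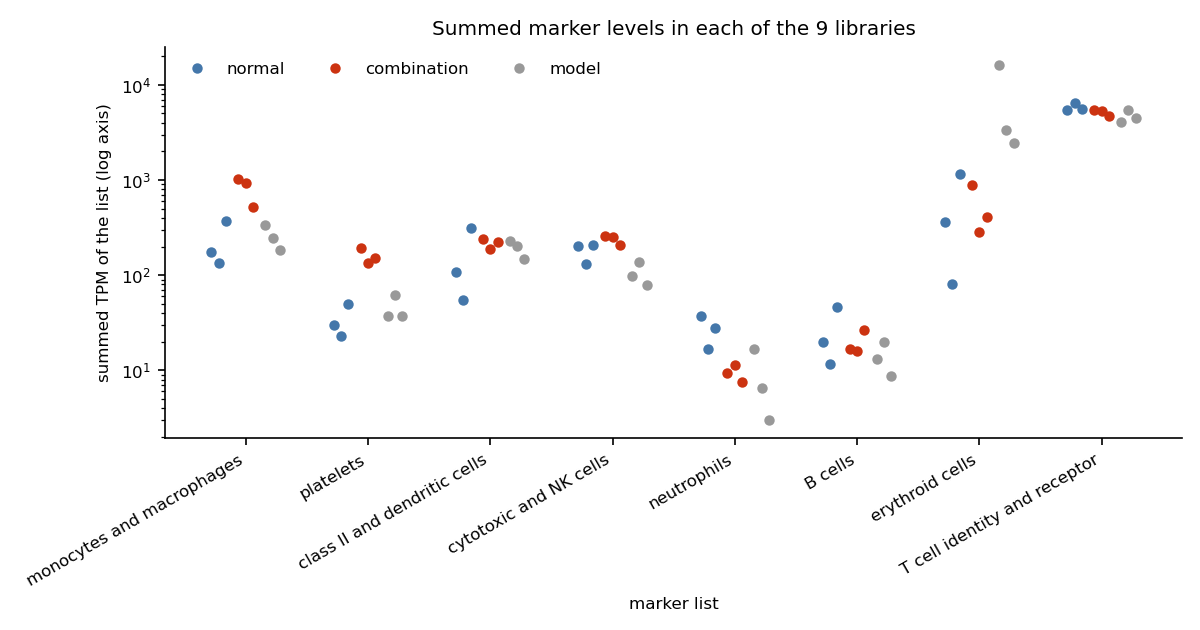
Summed TPM (log axis) of 8 marker lists in each of the 9 libraries, blue for normal, red for combination and grey for model. The combination libraries lie above all normal libraries for monocyte and platelet markers. They lie below them for neutrophil markers, of which 4 of 18 reached the filter, and narrowly for T cell identity genes. The latter summed to 5448 to 6421 TPM in normal, 4692 to 5432 TPM in combination and 4042 to 5396 TPM in model libraries.

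Platelet genes formed another group of rises. Clec1b, the podoplanin receptor of platelets (chromosome 4, 163162211 to 163171008), was at 0.771, 0.723 and 2.37 TPM in normal and at 14.1, 10.4 and 16.7 TPM in combination libraries, a rise of 2.74 ± 0.29 (limma, adjusted p = 0.00765). Nrgn, a calmodulin-binding protein abundant in neurons and platelets, was at 2.91, 1.69 and 4.05 TPM against 26.6, 19.3 and 19.6 TPM (2.59 ± 0.28, limma, adjusted p = 0.00765). Both passed in all 6 fits with 1 normal or combination library left out, as did Itga2b, the alpha chain of the fibrinogen receptor, which rose by 1.87 (2.87 ± 0.523 to 13.3 ± 3.24 TPM). The locus of Itga2b holds a second gene name. The model libraries lay close to the normal level, with 1.46 to 2.33 TPM for Clec1b and 3.71 to 6.84 TPM for Nrgn.

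Pf4, platelet factor 4, was at 11.1, 6.57 and 23.3 TPM in normal and at 89.4, 49.8 and 71.1 TPM in combination libraries (2.41 ± 0.43, limma, adjusted p = 0.025). Gp1bb, of the von Willebrand factor receptor, Treml1, a receptor of platelet granules, and Gng11, a G protein subunit, were also called. Of 19 platelet markers 10 reached the filter, and 7 of these were called higher (2.75% of all genes tested). This count too is a description, since genes such as Gng11 (0.334 and 2.24 TPM in normal and combination libraries) reached the filter only through the combination group. Itgb3, the beta chain that pairs with Itga2b and is not specific to platelets, averaged 6.54 and 8.07 TPM and did not pass (limma, adjusted p = 0.581). All 19 markers had a higher mean in the combination group, and the 9 that missed the filter, Ppbp, Gp9 and Tubb1 among them, stayed at 2.28 TPM or less. The summed platelet markers were at 29.8, 22.8 and 49.98 TPM in normal, at 195, 133 and 152 TPM in combination and at 37.4, 61.5 and 37.3 TPM in model libraries. Myl9, the myosin light chain of smooth muscle and platelets, was chosen here after its values were seen; it rose by 2.55 from 2.26 ± 0.881 to 17.8 ± 3.37 TPM.

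Markers of other blood cells gave at most 1 called gene per list, where 4.83% of all genes tested were called. Neutrophil markers summed to 37.4, 16.7 and 28.1 TPM in normal and to 9.33, 11.2 and 7.59 TPM in combination libraries. By group means, most of the normal sum came from S100a8 and S100a9. Of the 18 markers 14 missed the filter, and 7 of the 18 had a higher mean in the combination group. S100a8, a subunit of calprotectin, fell from 9.99, 5.13 and 8.82 TPM to 1.31, 1.49 and 1.06 TPM (-1.94 ± 0.41, limma, adjusted p = 0.0359), a call lost when any 1 of the 6 libraries was left out; its partner S100a9 averaged 14.96 and 3.56 TPM and did not pass. B cell markers summed to 11.7 to 46.1 TPM and 16.0 to 26.4 TPM and erythroid markers to 80.8 to 1145 TPM and 281 to 886 TPM in normal and combination libraries, with 0 members called in either list. Of 11 tested class II and dendritic cell markers, 1 was called, the integrin Itgax, which rose by 1.47 to 3.21 ± 0.943 TPM. The median difference of that list was 0.87, and 16 of its 18 found genes had a higher mean in the combination group. Its sums overlapped, at 54.9 to 312 TPM in normal and 188 to 240 TPM in combination libraries. Among 13 tested cytotoxic and NK cell markers the lectin receptor Klrb1a was called (1.36, to 2.50 ± 0.672 TPM), while Gzma, Gzmb and Ncr1 were under 0.4 TPM in every library.

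Npy, which encodes the vasoconstrictor neuropeptide Y (chromosome 4, 79557854 to 79565097), was at 7.29, 3.80 and 13.7 TPM in normal and at 78.1, 57.0 and 86.0 TPM in combination libraries. The groups lay well apart, and the rise was 3.14 ± 0.39 (limma, adjusted p = 0.0104; 0.0584 without combination replicate 1, with a rise of 3.09). The model libraries held 10.9, 19.2 and 9.52 TPM. A neighbouring gene, LOC100912228 (chromosome 4, 79573998 to 79581208), moved by 3.31 from 9.11 to 91.3 TPM. Were it a near-identical copy, reads could be split between them, so the level of either is uncertain.

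Among NF-kB subunits and targets 6 of 28 genes rose (2.75% of all genes tested were called higher), with Nfkb2 first by size. Nfkb2 (chromosome 1, 266049518 to 266059256) was at 54.2, 21.4 and 27.8 TPM in normal and at 299, 213 and 151 TPM in combination replicates 1, 2 and 3. Its groups did not overlap, and it rose by 2.70 ± 0.36 on the log2 scale (limma, adjusted p = 0.0126; 0.0507 and 0.0584 without normal replicate 2 and without combination replicate 1). Relb was at 24.0, 17.5 and 17.4 TPM in normal and at 108, 79.0 and 51.0 TPM in combination libraries (1.91 ± 0.31, limma, adjusted p = 0.0233). Its locus holds a second gene name, and summed over the whole locus the difference was 0.60 with an adjusted p of 0.114. In the model libraries Nfkb2 was at 207, 152 and 262 TPM and Relb at 156, 96.2 and 180 TPM.

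A stretch of promoter is shown for each of Nfkb2 and Nfkbia because it holds the letters of an NF-kB site. The motif searched, on both strands, was GGGA followed by any 1 base and then TTTCC, in the 250 bases before the start of each gene in RefSeq (GRCr8, another build than that of the files), and 105 of 33469 promoters (0.314%) held it. Of the 28 listed NF-kB genes 23 had an entry, and 5 of these held the motif: Ltb, Nfkb2, Nfkbia, Nfkbiz and Tnfaip3. Capitals mark the match, which begins 20 bases before the start of Nfkb2 (chr1:255108254-255108373, plus strand) and 31 bases before that of Nfkbia (chr6:78597073-78597192, minus strand). A match is a description of these letters and not evidence of binding.
Nfkb2: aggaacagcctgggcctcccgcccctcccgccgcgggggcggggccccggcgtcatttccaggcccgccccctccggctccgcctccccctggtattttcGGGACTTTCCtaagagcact
Nfkbia: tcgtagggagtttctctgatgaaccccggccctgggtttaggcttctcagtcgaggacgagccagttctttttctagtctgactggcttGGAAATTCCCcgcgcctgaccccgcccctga
Of these 5 genes, Nfkb2 passed. Nfkbia was at 361, 267 and 348 TPM in normal and at 727, 599 and 435 TPM in combination libraries (0.83, limma, adjusted p = 0.0833), and Tnfaip3, a deubiquitinase that restrains NF-kB, averaged 263 and 319 TPM.

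Among target genes, Icam1, the adhesion molecule that binds LFA-1, was at 14.2, 6.15 and 12.2 TPM in normal and at 70.5, 61.3 and 31.0 TPM in combination libraries (2.21 ± 0.36, limma, adjusted p = 0.0242). Birc3, an inhibitor of apoptosis that also limits non-canonical signalling, was at 45.2, 22.3 and 24.8 TPM against 148, 125 and 84.3 TPM (1.95 ± 0.29); its locus holds a second gene name. In both genes each combination library lay above each normal one. Nfkb1 rose by 1.44 to 230 ± 69.0 TPM and the inhibitor Nfkbib by 0.61 to 114 ± 10.7 TPM. All 28 NF-kB genes reached the filter and 0 were called lower, and the list had a median difference of 0.83 against 0.04 over all genes tested. Rela and Rel averaged 98.5 and 16.2 TPM in normal and 138 and 26.5 TPM in combination libraries and did not pass. The kinase gene Ikbke had a lower mean in the combination group (96.8 and 54.6 TPM) and did not pass either. Combination replicate 1 was the highest and replicate 3 the lowest combination library for Nfkb2, Relb, Icam1 and Birc3, the same order as for the summed monocyte markers. That order was not particular to monocyte markers. It also held for Cd3e, Cd4 and the summed naive and memory T cell genes (5508, 4302 and 3294 TPM), and its cause was not tested.

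**Figure D3:**
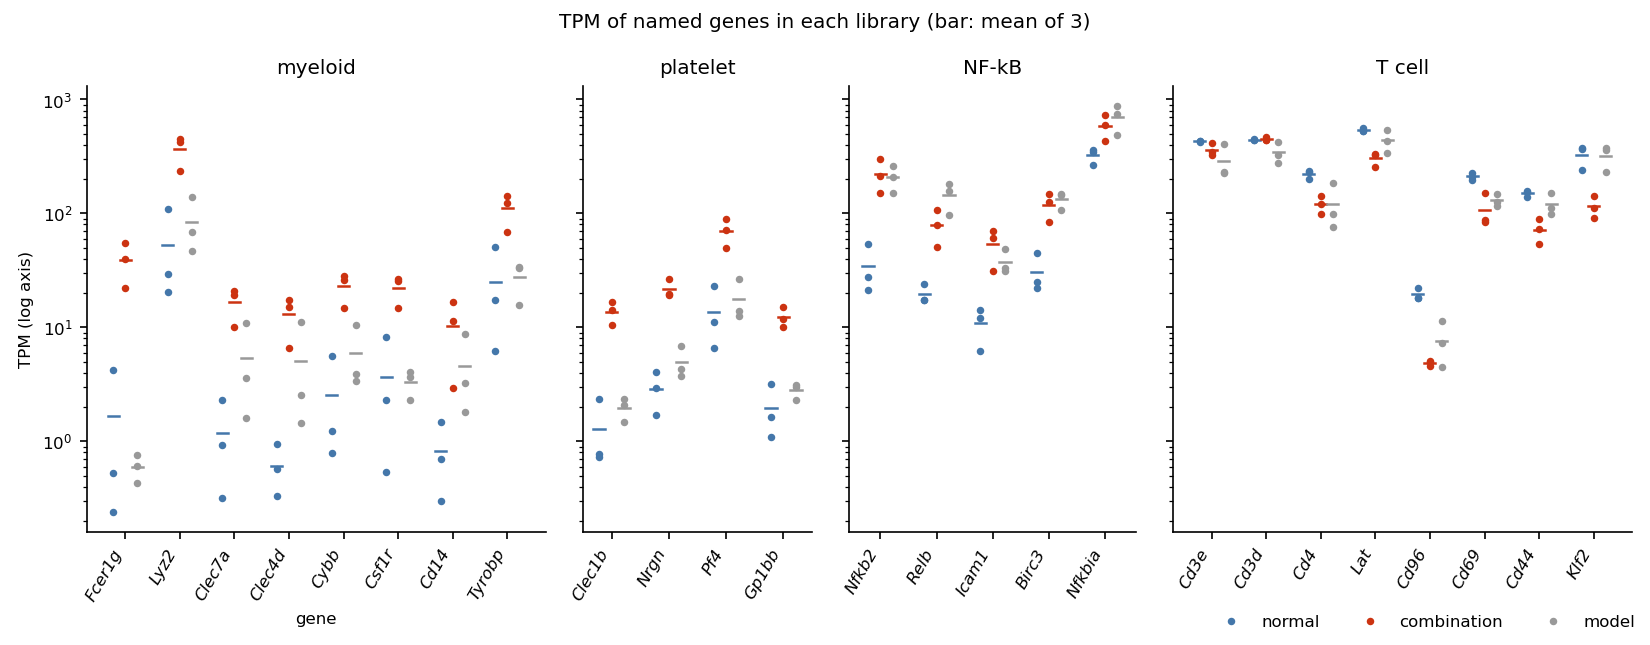
TPM (log axis) of 25 named genes in each library, blue for normal, red for combination and grey for model, with a bar at the mean of 3. Fcer1g and Clec1b are high in the combination libraries alone, Nfkb2 and Relb are high in combination and model libraries, and Cd3e and Cd3d lie close together in the normal and combination groups.

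Mt2A, a metallothionein that binds zinc and copper (chromosome 19, 11307967 to 11308740), was at 27.4, 5.82 and 9.37 TPM in normal, at 96.2, 153 and 58.0 TPM in combination and at 142, 129 and 54.1 TPM in model libraries. It rose by 2.93 ± 0.56 against normal (limma, adjusted p = 0.0315) and lost the call without normal replicate 2 or 3 or combination replicate 1 or 2 (adjusted p of 0.0791 to 0.107). Metallothionein genes are classically induced through metal response elements, so the 250 bases before its start (chr19:10838709-10838958, minus strand, GRCr8) are shown. Capitals mark TGCNCNC on either strand, with N any base, a loose pattern searched in place of the element's core. A match describes these letters and is not evidence of an element.
Mt2A: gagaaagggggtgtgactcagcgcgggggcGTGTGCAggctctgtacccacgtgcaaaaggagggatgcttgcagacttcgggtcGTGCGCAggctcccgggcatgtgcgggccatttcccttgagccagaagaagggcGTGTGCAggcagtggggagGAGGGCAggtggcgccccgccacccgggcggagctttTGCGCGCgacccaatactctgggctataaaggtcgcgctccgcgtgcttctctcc
The window held 5 matches. Of all 33469 promoters 43.4% held at least 1 match and 1.16% held 4 or more. A gene named Mt1 on chromosome 17 averaged 34.7 and 72.5 TPM in normal and combination libraries and did not pass (limma, adjusted p = 0.0755). RefSeq places Mt1 on chromosome 19 (GRCr8), so the chromosome 17 gene may be another copy and does not stand for it.

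Genes of T cell signalling, trafficking and quiescence were among the falls. Cd96, an inhibitory receptor of T and NK cells that binds nectin-like ligands (chromosome 11, 57108956 to 57183270), was at 18.01, 18.3 and 22.2 TPM in normal and at 5.06, 4.93 and 4.57 TPM in combination libraries (-1.80 ± 0.27, limma, adjusted p = 0.0167). Itgb7, the beta chain of the gut-homing integrin, was at 43.5, 45.2 and 52.1 TPM against 13.4, 14.9 and 10.99 TPM (-1.77 ± 0.34, limma, adjusted p = 0.031). Klf2, a transcription factor of quiescence and of exit from lymphoid tissue, was at 239, 365 and 375 TPM against 143, 91.5 and 111 TPM (-1.49 ± 0.25, limma, adjusted p = 0.0242). In each of these the combination libraries lay below all normal ones, and the Itgb7 call was lost when any 1 of the 6 libraries was left out. In model replicates 1, 2 and 3 Cd96 was at 4.46, 11.3 and 7.25 TPM, Itgb7 at 16.1, 46.2 and 17.99 TPM and Klf2 at 358, 232 and 376 TPM.

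Lat, the adaptor that gathers signalling proteins below the T cell receptor, fell from 559, 534 and 532 TPM to 331, 324 and 256 TPM (-0.84 ± 0.18, limma, adjusted p = 0.0368). It was the 1 gene called among 24 tested T cell identity and receptor genes, whose median difference was -0.18, and the call was lost when any 1 of the 6 libraries was left out. Cd44 and Cd69, markers of memory and of recent activation, fell from 151 ± 10.6 to 71.9 ± 17.8 TPM and from 211 ± 15.7 to 108 ± 38.1 TPM. Myc, a driver of T cell growth, was at 111, 176 and 99.5 TPM in normal and at 42.5, 44.2 and 43.4 TPM in combination libraries (-1.50, limma, adjusted p = 0.035, lost when any 1 of the 6 libraries was left out). Klf2, Cd44 and Cd69 were the calls among 16 naive and memory genes, with 0 higher. Cd96, Myc and Cd69 were those among 21 activation and costimulation genes, with 0 higher. Of all genes tested 2.08% were called lower. Ccr7, a homing receptor of naive cells, averaged 1089 TPM in normal and 862 TPM in combination libraries and did not pass.

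Jund, a partner of Fos proteins in AP-1 (chromosome 16, 20485029 to 20486707), was at 2252, 2514 and 2387 TPM in normal and at 1252, 1141 and 1233 TPM in combination libraries, a change of -0.98 ± 0.10 (limma, adjusted p = 0.00676) that passed in all 6 fits with 1 library left out. The model libraries were at 2596, 2815 and 2692 TPM. Another AP-1 relative, the repressor Jdp2, rose by 1.70 to 5.23 ± 2.55 TPM, and the other 9 tested AP-1 genes did not pass. Tsc22d3, which encodes the glucocorticoid-induced leucine zipper, fell from 602, 899 and 859 TPM to 277, 233 and 362 TPM (-1.43 ± 0.20, limma, adjusted p = 0.0139). Txnip, an inhibitor of thioredoxin and of glucose uptake, fell from 793 ± 161 to 397 ± 56.9 TPM (-0.98), a call lost when any 1 of the 6 libraries was left out. With Mt2A higher, these were the 3 calls among 17 genes that respond to glucocorticoids (4.83% of all genes tested were called).

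The other large falls by the rule for named genes were of mixed function. Bbof1, a basal body protein, fell from 14.7, 8.31 and 10.6 TPM to 0.421, 4.57 and 0.460 TPM (-2.40), with combination replicate 2 above the other combination libraries. Lrrc23, a component of ciliary radial spokes, fell from 24.9, 21.3 and 25.2 TPM to 5.12, 4.84 and 4.499 TPM (-2.09 ± 0.29, limma, adjusted p = 0.0139). St8sia6, a sialyltransferase, fell by 1.69 from 8.72 ± 1.32 to 2.01 ± 0.316 TPM and was the 1 of the 15 largest falls that passed in all 6 fits with 1 library left out. Mllt3 of the super elongation complex, the sulfotransferase Chst11, the formin Fmnl3, the dynein light chain Dynll1, the mitochondrial thiolase Acaa2 and Ssbp3, Mcc, Paqr5 and Stox2 fell by 1.65 to 1.86.

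Several further rises lay outside the myeloid and platelet lists. Cars, the cysteinyl-tRNA synthetase, was at 10.6, 7.26 and 7.31 TPM in normal and at 72.3, 53.7 and 45.9 TPM in combination libraries (2.63 ± 0.40, limma, adjusted p = 0.0191), and in the model libraries at 68.9, 23.3 and 76.6 TPM. Ell2, an elongation factor of RNA polymerase II, averaged 11.9 ± 3.66 and 79.0 ± 16.6 TPM (2.65); its locus holds a second gene name. A copy of the signal recognition particle RNA (Metazoa_SRP) rose by 2.63 from 4.02 to 32.3 TPM, in a locus of 3 names and 300 bases long, so its level is uncertain. Of the 30 genes named as the 15 largest rises and 15 largest falls, 3 passed in all 6 fits with 1 library left out, namely Clec1b, Nrgn and St8sia6. Without normal replicates 1, 2 and 3 in turn 7, 5 and 18 of the 30 passed, and without combination replicates 1, 2 and 3 in turn 3, 10 and 24; the smallest size of any of these differences in those fits was 1.34. Acaa2, Paqr5 and Ssbp3, and among genes named further on Chac1, Rragd, Oas1b, Oasl2, Rpl6 and Mt-co1, passed in none of the 6.

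Of 44 tested histone genes 7 were called lower and 0 higher, with a median of -0.58; of all genes tested 2.08% were called lower. Hist1h4m was at 40.7, 64.2 and 44.2 TPM in normal, at 15.5, 10.6 and 20.7 TPM in combination and at 20.3, 12.6 and 18.7 TPM in model libraries (-1.63 ± 0.28, limma, adjusted p = 0.0242). It passed without combination replicate 3 and lost the call without each of the other 5 libraries, with adjusted p of 0.0551 to 0.0954. Histone genes occur in many near-identical copies, so the level of any 1 of them is uncertain. Hist2h2aa3 fell by 0.73, to 32.3 ± 1.65 TPM.

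Interferon-stimulated genes moved in both directions, with 1 of 32 tested genes higher and 3 lower (2.75% and 2.08% of all genes tested). Mx2, an antiviral GTPase, fell from 6.26, 5.56 and 6.87 TPM to 2.29, 2.63 and 1.44 TPM (-1.23, limma, adjusted p = 0.0242). Oas1b and Oasl2, of the oligoadenylate synthetase family, fell by 1.28 and 1.06, and Gbp5, a guanylate-binding protein, rose by 1.04 to 45.0 ± 10.9 TPM. The list's median of -0.09 had the opposite sign in 2 of the alternatives. Il18r1, the receptor of interleukin 18, was the 1 gene called of 10 tested Th1 genes, rising from 8.92 ± 1.27 to 19.0 ± 2.38 TPM.

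The defining regulators of helper lineages were at low to moderate levels. Foxp3, of regulatory T cells, was at 20.3, 13.9 and 19.9 TPM in normal and at 29.0, 25.1 and 19.4 TPM in combination libraries (0.42, limma, adjusted p = 0.221), so the groups overlapped. Tbx21, of Th1 cells, averaged 2.34 and 3.08 TPM and Gata3, of Th2 cells, 9.57 and 12.6 TPM, and neither passed. The Th2, Th17, regulatory and follicular helper lists, with 8, 7, 10 and 9 tested genes, held 0 called genes each by limma; with 4.83% of all genes called, lists of this length can hold none without standing apart. Of 20 tested cytokine and chemokine genes 0 passed; Il1b, at 14.5, 4.58 and 25.4 TPM in normal and 84.2, 64.0 and 25.0 TPM in combination libraries, had an adjusted p of 0.0737 in limma. JAK-STAT and TGF-beta signalling, with 26 and 15 tested genes, also held 0 calls. At an unadjusted p under 0.05, 3814 of all 14309 genes differed.

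Stress and metabolic lists held 0 to 3 called genes each, where 4.83% of all genes tested were called. Among 19 tested genes of the ATF4 response and serine synthesis Phgdh, the first enzyme of serine synthesis, was at 24.3, 25.2 and 23.7 TPM in normal and at 50.3, 52.8 and 42.5 TPM in combination libraries (0.96 ± 0.15, limma, adjusted p = 0.0242). Chac1, which degrades glutathione, rose by 1.85 from 0.512 to 4.54 TPM, and the median of that list was 0.63. Ern1, a sensor of unfolded proteins, was at 7.07, 5.92 and 6.18 TPM in normal and at 44.4, 34.7 and 23.1 TPM in combination libraries (2.20, limma, adjusted p = 0.0402), while Creld2, a chaperone-like target of the same response, fell by 0.77; the other 18 tested genes of the unfolded protein response did not pass. Ulk1, the kinase that starts autophagy, rose from 16.9 ± 2.45 to 61.7 ± 20.1 TPM, and with Rragd and Rictor made up the 3 calls among 31 mTOR and autophagy genes. Pfkl, of phosphofructokinase, fell by 1.17 and was the 1 call among 24 glycolysis genes, whose median was -0.34. Heat shock chaperones and splicing factors, with 21 and 36 tested genes, held 0 calls.

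Ribosomal protein, nuclear oxidative phosphorylation and proteasome genes gave 1 to 3 calls per list, where 4.83% of all genes tested were called. Of 96 tested cytosolic ribosomal protein genes 3 were lower and 0 higher, where 2.08% of all genes tested were called lower. Among them Rplp2 fell from 3772 ± 60.6 to 2414 ± 415 TPM (-0.66), and Rpl6 fell by 0.41. The groups did not overlap for 31 of the 96 genes (35.9% of all genes tested), with 29 of these lower and 2 higher. The list as a whole was not lower to that degree. Its median difference was -0.06 against 0.04 over all genes tested, and 48 of its 102 found genes had a higher mean in the combination group. The summed TPM overlapped, at 364989 to 376726 in normal and 340068 to 433162 in combination libraries. Of 77 nuclear genes of oxidative phosphorylation Ndufb9 alone was called, higher by 0.66, and of 41 proteasome genes Psme4, an activator subunit, higher by 1.03. In the list of mitochondrially encoded genes 2 of 12 tested were called: Mt-nd6 rose by 1.34 to 208 ± 4.92 TPM and Mt-co1 fell by 0.73, the latter in a locus of 7 names. That list does not hold every gene of the mitochondrial chromosome. The mitochondrial locus AY172581.24, described at the end, lies outside it and was called higher. Whether the counting used strand is not given, so Mt-nd6, which lies on the strand opposite to most mitochondrial genes, cannot be told apart from antisense RNA of its neighbours. Of 104 tested C/D box snoRNAs 0 and of 107 H/ACA box snoRNAs 3 were called.

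**Figure D4:**
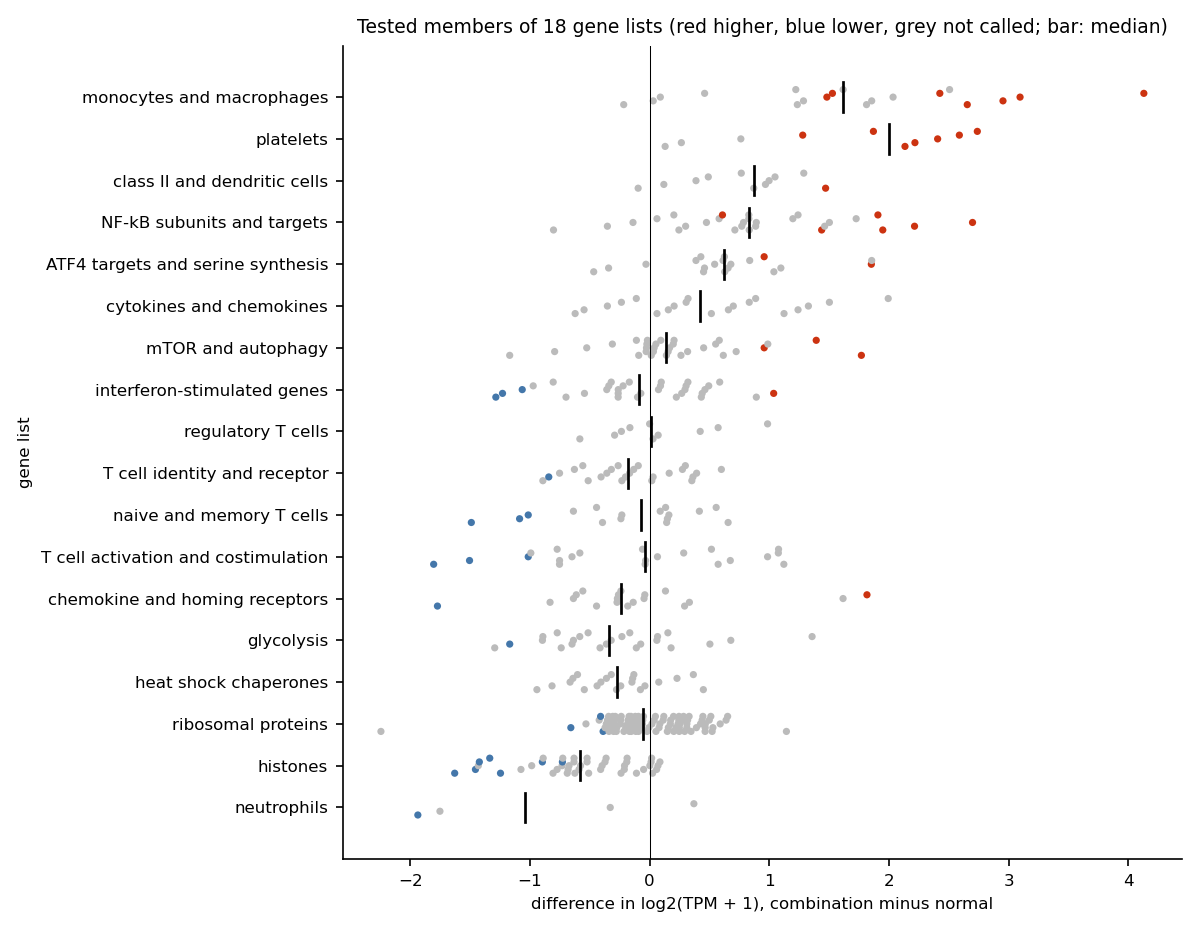
Difference in log2(TPM + 1) between combination and normal (x axis) of every tested member of 18 gene lists (y axis); red members were called higher, blue lower and grey not called, and the bar is the median. Platelet and monocyte medians lie at 2.00 and 1.62 and the histone median at -0.58.

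Single transcripts were compared next. Of 35980 transcripts 73 (0.203%) differed in level, 45 higher and 28 lower, and 40 of these belonged to genes that were not called. The share of a transcript within its gene was then tested for 29245 transcripts in 7430 genes with limma's diffSplice, and 322 (1.10%) differed, 154 higher and 168 lower, in 244 genes, of which 20 were called as genes and 224 were not. Shares did not overlap between the groups for 277 of the 322. With each of the 6 libraries left out in turn 87 of them passed every time. Of the 322 transcripts 253 were assembled by the authors and 69 came from the reference, 52 lay in loci of several names, and for 32 one group was listed at 0 throughout. A value of 0 for an isoform may be a failed estimate, since the program divides reads among overlapping models, so large changes of share are differences in these estimates.

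In Lmbr1l, which encodes a membrane protein of lymphocytes (chromosome 7), the reference transcript ENSRNOT00000082375 held 62.1%, 57.0% and 59.8% of the gene in normal, 1.22%, 1.57% and 1.37% in combination and 61.1%, 60.6% and 59.5% in model libraries (limma, adjusted p = 6.97e-15). The combination libraries stood apart from the other 6, and the call held in all 6 fits with 1 library left out. The gene itself averaged 55.0 and 46.4 TPM and was not called. The assembled form MSTRG.15941.7, which ends at 140586430 on the minus strand where the reference transcript ends at 140585832, held 0.295% and 14.96%. The locus has 2 gene names.

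In Tmem147, of the endoplasmic reticulum membrane (chromosome 1), the reference transcript ENSRNOT00000028514 fell from 94.3%, 92.1% and 93.7% to 19.9%, 8.98% and 45.7% (limma, adjusted p = 2.52e-05). The assembled MSTRG.718.1, which runs on to position 89140184 from a start at 89180591 on the minus strand, took 77.0%, 83.6% and 49.2% of the gene in its place against 3.41%, 5.03% and 2.55% in normal libraries. The model libraries held 86.4%, 75.8% and 90.7% of this form. Tmem147 was also called as a gene, falling from 41.1 to 17.7 TPM, in a locus of 2 names. The exons of MSTRG.718.1 overlap both names, and it was counted under Tmem147 by the larger overlap. It may therefore not be a form of Tmem147 alone.

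Tmem163, a zinc transporter (chromosome 13), changed in level and in form. The gene rose from 13.9, 10.5 and 14.9 TPM to 80.2, 68.2 and 55.9 TPM (2.29 ± 0.40, limma, adjusted p = 0.0246), and the share of its reference transcript ENSRNOT00000005006 rose from 2.81%, 7.05% and 8.83% to 69.0%, 70.2% and 69.1% (limma, adjusted p = 2.48e-11). The assembled forms that had made up most of the normal level fell in share, among them MSTRG.4969.8 from 24.7% to 3.76%. In the model libraries the reference transcript held 73.2%, 40.8% and 67.0%.

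Forms of other genes passed the rule with values that were less even within a group. MSTRG.17208.1 of the phosphatase Ptp4a1 held 1.34%, 3.11% and 5.29% of the gene in normal and 99.0%, 97.7% and 99.3% in combination libraries, but in the model libraries 0.288%, 99.5% and 3.25% (limma, adjusted p = 0.0279). ENSRNOT00000014560 of the apoptosis inhibitor Birc2 held 0.969%, 88.0% and 88.5% in normal libraries and under 0.01% in each combination library, in a locus of 2 names. MSTRG.736.9 of Uba2, a subunit of the SUMO-activating enzyme, held 89.1%, 24.9% and 91.9% against 0%, 11.7% and 0%. In the adaptor Sh3kbp1 MSTRG.18016.8 rose from 2.85% to 61.9% while MSTRG.18016.7 fell from 46.5% to 0%, and the gene stayed at 152 and 134 TPM, which did not pass. Jumps from near 0 to near all of a gene between libraries of 1 group, as in Ptp4a1 and Birc2, limit what can be read from such shares.

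The next 4 genes lay outside the rule for isoforms and were chosen after their values were seen. In Ankrd11, a chromatin regulator (chromosome 19), the reference transcript ENSRNOT00000031389 held 0.0113%, 0.00484% and 0.0147% in normal, 53.5%, 43.5% and 47.7% in combination and 43.3%, 35.1% and 40.4% in model libraries (limma, adjusted p = 7.04e-23), and it begins at 55737500 on the minus strand where the assembled forms begin near 55862501. The 2 assembled forms MSTRG.8702.1 and MSTRG.8702.3 fell from 13.04% and 15.8% to 0.72% and 0.668%, and the gene as a whole, at 54.6 and 66.7 TPM, was not called. In Nfkb2 the longest form, MSTRG.2132.1, fell from 13.2%, 61.0% and 58.5% to 3.91%, 3.98% and 4.03% (limma, adjusted p = 0.00269) while the gene rose. Its start at 266049518 lies before those of the other main forms at 266051954 to 266053002.

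Foxp3 was not called as a gene, yet its forms differed. MSTRG.17910.1, with 13 exons, rose from 7.13%, 7.19% and 7.28% to 34.4%, 69.9% and 75.7% (limma, adjusted p = 0.00639), and MSTRG.17910.2, with 15 exons, fell from 69.9%, 51.7% and 48.7% to 34.4%, 4.13% and 2.41% (limma, adjusted p = 0.0207). The model libraries held 23.8%, 6.99% and 45.3% of the first form and 38.0%, 70.7% and 19.0% of the second, spread over much of the range of both other groups. In Srsf1, a splicing factor of the SR family (chromosome 10), the reference transcript ENSRNOT00000073005, which ends at 75341197, fell from 41.6%, 52.2% and 42.6% to 14.3%, 17.4% and 10.98% (limma, adjusted p = 0.000855). MSTRG.3173.7 and MSTRG.3173.12, which run on to 75354984, rose from 1.64% and 0.503% to 25.7% and 16.0%, while the model libraries stayed at 0.778% and 0.935%; Srsf1 as a gene averaged 47.2 and 41.6 TPM and was not called.

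**Figure D5:**
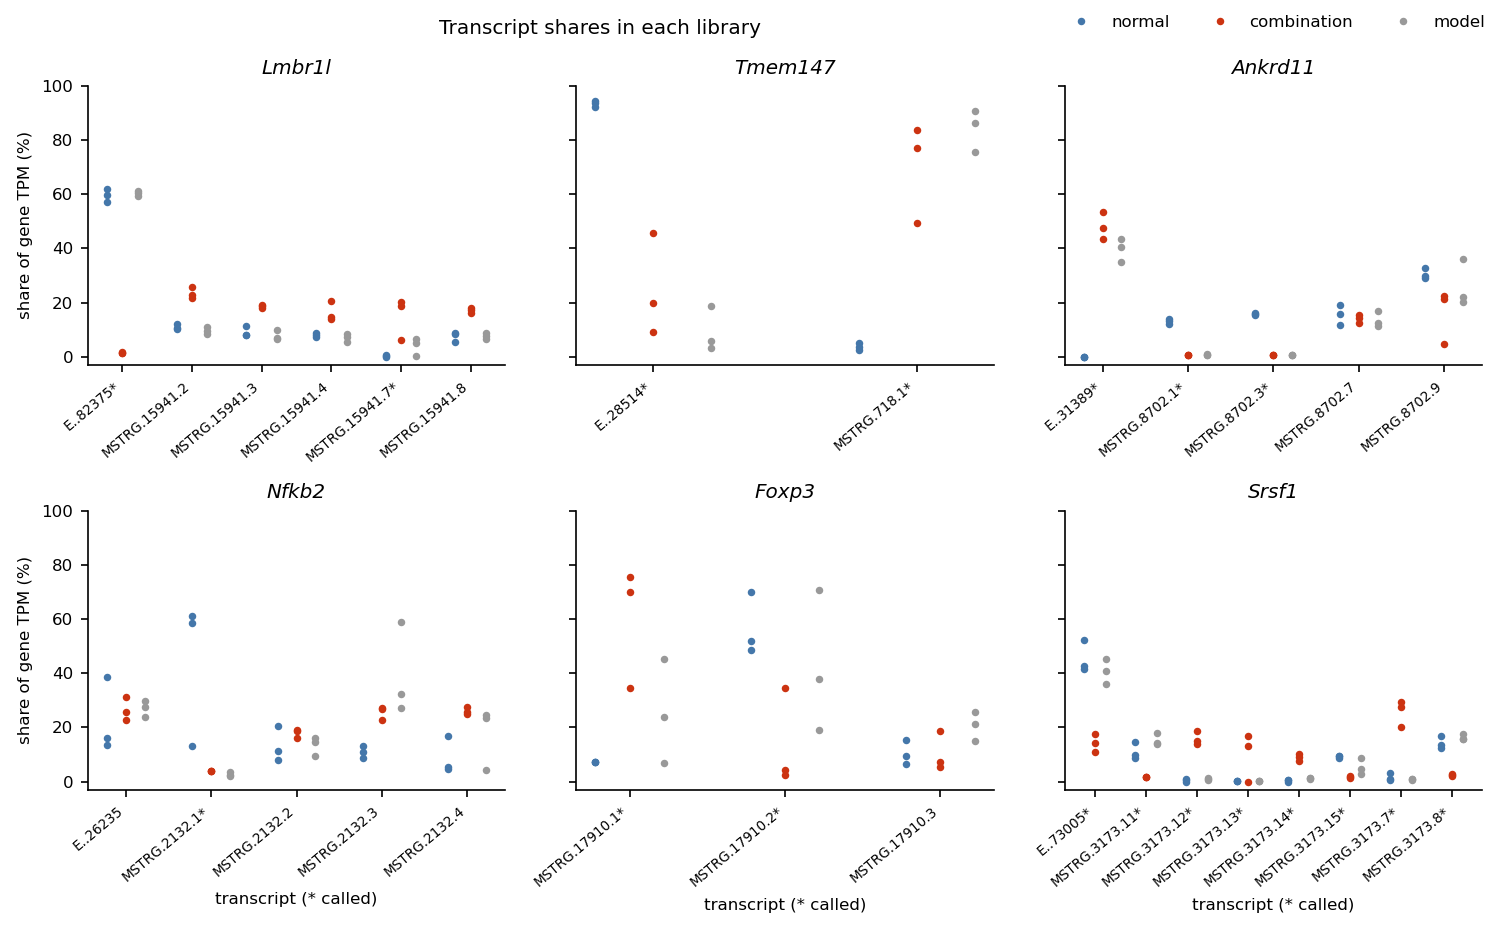
Share of gene TPM in percent (y axis) of the called and main transcripts (x axis, called ones starred) of Lmbr1l, Tmem147, Ankrd11, Nfkb2, Foxp3 and Srsf1 in each library, blue for normal, red for combination and grey for model. The combination libraries stand apart from normal and model libraries in Lmbr1l and Srsf1 and lie near the model libraries in Tmem147, Ankrd11 and Nfkb2.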

How the data were processed

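Total RNA had been isolated with Trizol and libraries made with an NEBNext Ultra RNA kit, per the labels' protocols. The authors used bcl2fastq, HISAT2 and the rat genome rn6, per the submitters' processing notes, and StringTie 1.3.3b estimated a fixed, merged set of transcripts, per the file headers. The deposited tables give coverage, FPKM and TPM of each transcript as other text attributes, without read counts or read length, so no counting interval was derived; aligned depth came from the ratio of coverage to FPKM. Which steps preceded the estimate is otherwise not given in the sources used here.

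TPM was summed by gene name within assembled locus, with exon overlap deciding the name of 5378 assembled transcripts in loci of more than 1 name. Of the 691 called genes 74 lay in such loci. Among named genes not marked so where they are described, Lat, Nfkb1, Stmn1, Stox2, Rplp2 and Hist2h2aa3 did. Features averaging 1 TPM or more across the 6 libraries entered limma 3.58.1 (R 4.3.3) as log2(TPM + 1). It was fitted to all 9 libraries with 1 coefficient per group and an intensity trend, with 6 residual and 3.55 (genes) or 2.10 (transcripts) prior degrees of freedom. Tests were two-sided with Benjamini-Hochberg adjustment over all features and a threshold of 0.05; all adjusted p-values are limma's, errors of log2 differences are SE and those of TPM are SD. The procedure was tested on simulated data. Python 3.11.15 was used with pandas 2.3.3, numpy 2.4.6 and, for plots, matplotlib 3.10.9.

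The genes, the 47 gene lists and the rules were chosen with earlier results of these data known. Genes named by rule were the 15 largest rises and 15 largest falls among called genes whose groups were apart, whose larger group mean was 5 TPM or more and which had a proper symbol, up to 4 called members per list (otherwise the 2 of the smallest p), the 10 called transcripts of the largest change in share in genes of at least 10 TPM, and defining cell type markers; a part is printed, and some genes are not reported here. Plasma cell and mast cell lists, with 5 and 0 tested genes, held 0 called genes. Alternatives were other pseudocounts (0.1 and 5), filters, FPKM, scaling, gene units, libraries in the fit, moderation, array weights, a block on replicate number and each library left out. Promoter sequences came from RefSeq (GRCr8).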

Additional observations from a re-analysis of the deposited data

How the results depend on the processing

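The count of 691 genes was 206 with no filter, 408 at a mean of at least 5 TPM, 1441 with FPKM, 1480 with only the 2 groups fitted, 1575 with median-ratio scaling, 1312 without haemoglobin, mitochondrial and ribosomal protein genes, 5318 with array weights, and 22 to 1626 with 1 library of the 9 left out. Pseudocounts, no intensity trend, locus sums and omission of genes under 300 bases gave 547 to 761. The 73 transcripts were 48 at a mean of at least 5 TPM, 128 with FPKM, 142 with only the 2 groups, 117 with median-ratio scaling and 47 to 270 with 1 library left out. The 322 transcripts called by share were 828 with no filter, 131 at a mean of at least 5 TPM, and 261 to 461 with 1 library left out. With the replicate number as a block the counts were 92 genes, 7 transcripts and 269 by share; residuals of libraries of equal number correlated at -0.132 to 0.0604 and 2 of 9 libraries correlated best with their own number, so no pairing was used. No named difference reversed; of 139 named genes and transcripts that were tested, 83 lost the call without combination replicate 1, 80 without normal replicate 2, 58 with no filter and 61 with the block. The cause was not tested.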

Other observations

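Further genes, all outside the lists except the cell cycle gene Stmn1, are given here as values, chosen after they were seen. Cytosolic tRNA synthetases other than Cars were also among the calls: Iars rose from 11.9 ± 2.63 to 44.3 ± 10.6 TPM, Aars from 37.3 ± 7.12 to 103 ± 20.4 TPM, Mars from 14.7 ± 1.40 to 38.6 ± 8.40 TPM and Yars from 36.5 ± 3.30 to 58.7 ± 6.48 TPM (mean ± SD, n = 3 per group). Eprs and Sars averaged 30.3 and 117 TPM in normal and 61.4 and 201 TPM in combination libraries and did not pass (limma, adjusted p = 0.0536 and 0.0627), and Kars stood at 99.5 and 97.5 TPM. Innate immune genes that rose were Nod2, a sensor of bacterial muramyl peptide, from 0.763 ± 0.651 to 6.72 ± 3.30 TPM, Tlr2 and Tlr7, receptors of bacterial lipoproteins and of RNA, to 5.28 ± 2.06 and 4.40 ± 1.25 TPM, and the complement gene C3, from 0.922 ± 0.879 to 5.06 ± 1.36 TPM. Casp4, an inflammatory caspase, rose from 20.0 ± 4.37 to 74.7 ± 34.1 TPM.

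Among genes of the cytoskeleton and of metabolism that fell, Tagln2, an actin-binding protein, went from 296 ± 51.1 to 111 ± 0.914 TPM. Stmn1, which destabilizes microtubules, fell from 47.8 ± 2.03 to 20.7 ± 1.52 TPM, and its model libraries were at 43.6, 41.5 and 52.1 TPM. Dnmt1, the maintenance DNA methyltransferase, fell from 24.6 ± 2.95 to 9.89 ± 1.80 TPM and Cpt1a, which admits fatty acids to mitochondria, from 11.5 ± 2.30 to 3.90 ± 0.770 TPM. March3, a ubiquitin ligase, fell from 26.3, 24.6 and 20.9 TPM to 8.74, 8.12 and 7.83 TPM (-1.43 ± 0.16, limma, adjusted p = 0.00765) and passed in all 6 fits with 1 normal or combination library left out; its model libraries were at 21.8, 18.6 and 23.7 TPM. The mitochondrial locus AY172581.24, 1571 bases long, rose from 646 ± 169 to 1899 TPM and also passed in all 6.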
